A study of Homo sapiens with 10 samples.

Results

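The natriuretic peptide genes NPPB, NPPA and NPPC, their receptor genes NPR1, NPR2 and NPR3, and the protease genes CORIN and FURIN were examined in ARPE-19 cells, an established human cell line of the retinal pigment epithelium (RPE). These 8 genes were found by their symbols among the 22626 rows of the deposited count table, and each symbol had a row. The set was selected on measured values of this experiment, in which NPPB stood out between the groups, so the values of NPPB between the groups are given as a description and without a test. The control group (MG, n = 5) was kept for 48 h with 5.5 mM glucose and 32 mM mannitol, and the high glucose group (HG, n = 5) for the same 48 h with 37.5 mM glucose and no listed mannitol. Cells of both groups had been maintained in DMEM with fetal bovine serum, all libraries came from 1 cell line, and no transgene is listed. The comparison asks how transcript levels differed after high glucose. The labels do not say whether the 5 libraries of a group were separate cultures, and the study's methods mention independent experiments only for its data in general, so the p-values measure the spread between these libraries, which may be technical. Total counts were 33039260 to 45864176 in MG and 32448991 to 44400714 in HG.

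Natriuretic peptides are small secreted hormones that are cut from larger precursors. B-type peptide, from NPPB, and atrial peptide, from NPPA, act mainly through the receptor NPR1, and C-type peptide, from NPPC, acts through NPR2. Both receptors are guanylyl cyclases that make cyclic GMP (cGMP) inside the cell, whereas NPR3 has no cyclase domain and removes the peptides from the surroundings. CORIN cuts the atrial precursor, and FURIN cuts many precursors, those of the B-type and C-type peptides among them. The system is best known from the heart and blood vessels, and its peptides and receptors have also been described in the retina and RPE.

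NPPB was the only one of the 8 genes whose HG libraries all lay below its MG libraries. The libraries of NPR2, NPR3 and FURIN overlapped between the groups, with differences in the mean of at most 0.09 on the log2 scale. NPPA and CORIN were close to the limit of detection, NPPC had 2 counts in 1 library, and NPR1 had no count. Of the 8 genes, 6 passed the filter on low counts (at least 0.249 CPM, the counts scaled to a common library size, in at least 5 libraries), and NPPC and NPR1 did not. NPPA reached that level in 4 MG and 4 HG libraries, CORIN in 3 MG and 5 HG libraries, and the other tested genes in all libraries. By the quasi-likelihood test of edgeR, with p-values adjusted by the Benjamini-Hochberg method over all 14936 rows tested, 1 of the 6 tested members was called lower and 0 were called higher (0 also at an unadjusted p under 0.05 and with DESeq2). Over all rows, 7.8% were called lower and 7.62% higher, and nothing is read from the members' count, which is NPPB itself, because the choice of members used this contrast.

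NPPB, the gene for the B-type peptide precursor, lies on the minus strand at chr1:11857464-11858931 (GRCh38, GENCODE 29), where 1 annotated transcript covers 694 exonic bases. None of the 595 windows of 100 bases along its transcript occurred in a transcript of another gene. The counts were 680, 908, 619, 676 and 780 in MG 1 to MG 5, and 204, 181, 162, 103 and 149 in HG 1 to HG 5. Scaled by library size with edgeR's TMM factors, these were 20.6, 20.4, 14.9, 20.5 and 17.5 CPM in MG and 5.30, 4.39, 3.61, 3.13 and 4.53 CPM in HG. MG 3 was the lowest control library and HG 1 the highest high glucose library, and the groups did not overlap: the lowest MG value was 2.81 times the highest HG value. Over all rows tested, 6.91% had every HG library below every MG library.

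The mean NPPB level was 18.8 ± 2.52 CPM in MG (SD, n = 5) and 4.19 ± 0.843 CPM in HG (SD, n = 5). The fitted log2 difference, HG minus MG, was −2.16 (SE 0.152), which is a level 4.47 times higher in MG than in HG. By the size of the difference NPPB was rank 43 of 14936 rows in either direction, a high rank being what the choice of NPPB for its difference gives. In the authors' FPKM values, which also divide by gene length, NPPB stood at 26.9, 25.9, 19.5, 26.9 and 23.0 in MG and at 6.68, 5.83, 4.76, 4.13 and 5.94 in HG. The bar plot of NPPB by library shows the same separation of the groups on both scales. In bulk RNA, fewer cells that express a gene and less RNA per cell cannot be told apart, and this holds for every difference given here.

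**Figure D1:**
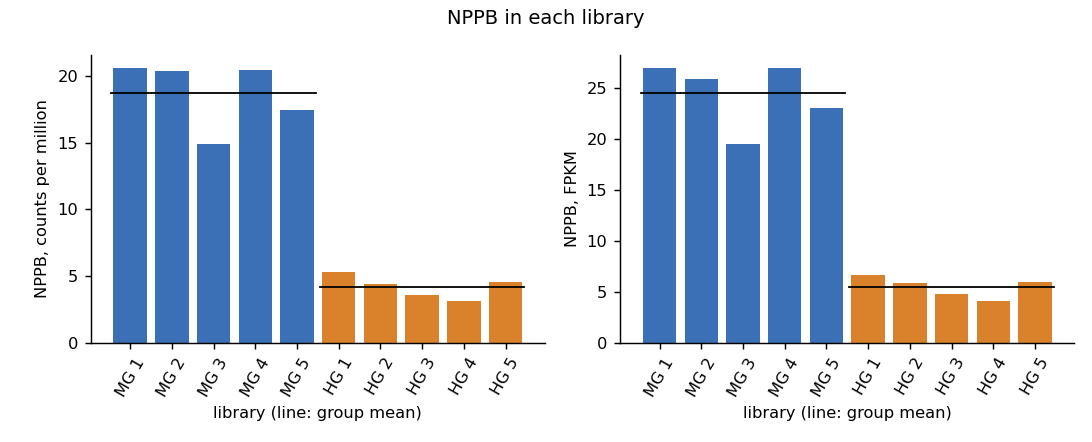
NPPB in the 5 MG (blue) and 5 HG (orange) libraries, as TMM-scaled CPM (left) and as the authors' FPKM (right), with black lines at the group means. The MG bars lie between 14.9 and 20.6 CPM and the HG bars between 3.13 and 5.30 CPM, with no overlap.

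NPPB varied more within groups than most genes. The SD of its log2 CPM within groups was 0.253, at percentile 73.1 of all rows tested, against a median of 0.173 over all rows. Leaving out each library in turn moved the log2 difference between −2.26 and −2.07, and leaving out MG 2 and HG 1 together, the libraries that lie apart from the rest on the second principal component, gave −2.23.

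The other ligand genes were far below NPPB. NPPA, the gene for the atrial peptide precursor, lies 9.12 kb from NPPB on the same strand, at chr1:11845709-11848345 (GRCh38). Its counts were 10, 12, 19, 9 and 4 in MG and 13, 15, 16, 8 and 9 in HG. The MG values, 0.0898 to 0.457 CPM, enclosed the HG values, 0.243 to 0.364 CPM, and MG 5 was the lowest library. The log2 difference was 0.19 (SE 0.377), and its 95% interval from −0.68 to 1.06 leaves both a moderately lower and a moderately higher level possible at this depth. Without MG 3 the difference was 0.44 and without MG 5 it was −0.04, the opposite sign. A share of 25.5% of NPPA's exonic bases is also exonic sequence of CLCN6 on the opposite strand, and as the sources used here do not state that counting used strand, reads of the genes cannot be told apart there.

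NPPC, the gene for the C-type peptide precursor (chr2:231921820-231926403, minus strand, GRCh38), had 2 counts in MG 5 and 0 in the other 9 libraries. NPR1, the gene for the main receptor of the B-type and atrial peptides (chr1:153678637-153693992, plus strand, GRCh38), had 0 counts in all 10 libraries. A count of 0 allows up to 3 counts, which is 0.0669 to 0.0912 CPM per library, so NPR1 was not detected above that level in either group. These limits cover counting error only, and no fold is given for NPPC or NPR1.

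NPR2, the gene for the C-type peptide receptor, was the most abundant receptor gene. It lies on the plus strand at chr9:35792154-35809732 (GRCh38), and 8.51% of its exonic bases overlap SPAG8 on the opposite strand. The MG libraries had 13.1, 12.2, 12.8, 13.6 and 14.8 CPM, and the HG libraries 15.2, 13.5, 14.3, 10.3 and 12.9 CPM. HG 1 was the highest and HG 4 the lowest of all 10 libraries, so the HG group enclosed the MG group. The log2 difference was −0.01 (SE 0.104), with a 95% interval from −0.25 to 0.23, and lay on both sides of 0, from −0.06 to 0.07, when each library was left out in turn.

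NPR3, the clearance receptor gene (chr5:32689070-32791724, plus strand, GRCh38), had 5.00, 3.92, 4.11, 4.69 and 4.07 CPM in MG and 3.30, 4.65, 4.90, 3.59 and 5.60 CPM in HG. The groups overlapped throughout, with HG 1 the lowest and HG 5 the highest library. The log2 difference was 0.02 (SE 0.159), and its 95% interval ran from −0.35 to 0.38. It also lay on both sides of 0, from −0.08 to 0.11, when each library was left out in turn.

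Of the protease genes, FURIN was abundant and CORIN scarce. FURIN (chr15:90868592-90883458, plus strand, GRCh38) had 192, 182, 167, 175 and 168 CPM in MG and 186, 160, 167, 164 and 150 CPM in HG. MG 1 was the highest library and HG 5 the lowest, and the groups overlapped. The log2 difference was −0.09 (SE 0.063), with a 95% interval from −0.24 to 0.05, and −0.14 to −0.06 when each library was left out in turn.

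CORIN (chr4:47593998-47838106, minus strand, GRCh38) had 6, 12, 9, 12 and 23 counts in MG and 18, 20, 20, 9 and 12 counts in HG. MG 5 was the highest and MG 1 the lowest of the libraries by CPM, at 0.517 and 0.182 CPM. The log2 difference of 0.39 had an SE of 0.330 and a 95% interval from −0.37 to 1.15. It was 0.26 without MG 1 and 0.66 without MG 5. The difference was not detectable at this depth.

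Per length, the order of the members was the same in both groups. In MG the mean FPKM was 38.9 ± 2.14 for FURIN, 24.4 ± 3.18 for NPPB, 3.25 ± 0.499 for NPR2 and 0.709 ± 0.133 for NPR3 (SD, n = 5). In HG it was 36.7 ± 2.31 for FURIN, 5.47 ± 1.01 for NPPB, 3.09 ± 0.481 for NPR2 and 0.765 ± 0.219 for NPR3 (SD, n = 5). The library ranges of these neighbours did not overlap in either group. Below them, NPPA (mean 0.296 FPKM in MG and 0.343 in HG) and CORIN (0.0548 and 0.0787) overlapped in MG and not in HG, and NPPC and NPR1 could not be ordered. Among all rows tested, the mean FPKM over the 10 libraries was at percentile 87.7 for FURIN, 71.0 for NPPB, 35.8 for NPR2 and 17.0 for NPR3. The distance between NPPB and NPR2 was much smaller in HG than in MG, and by CPM, without division by length, NPPB stood at rank 2 in MG and rank 4 in HG.

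**Figure D2:**
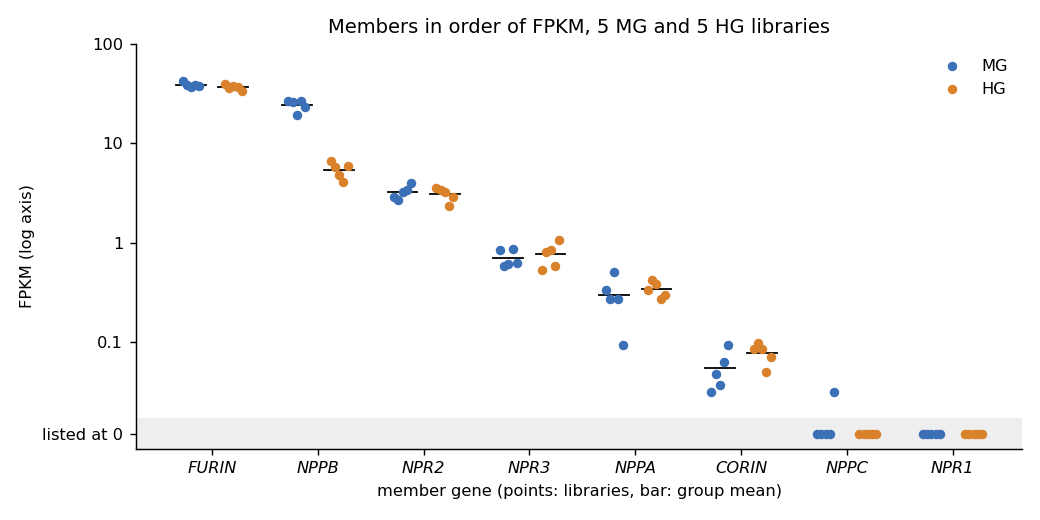
FPKM (log axis) of the 8 member genes in each of 5 MG (blue) and 5 HG (orange) libraries, with a bar at the group mean. Values of 0 are drawn in the grey strip. NPPB is the only gene whose 2 groups separate, NPPC has a value in 1 MG library, and NPR1 lies in the strip throughout.

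Ratios within a library do not depend on the scaling between libraries. NPPB held 97.5 to 99.5% of the FPKM of the ligand genes NPPB, NPPA and NPPC in MG and 92.5 to 95.2% in HG, so it was the main ligand transcript in both groups. NPPB stood at 38.4 to 247 times NPPA in MG and at 12.4 to 19.9 times in HG, with the widest MG value resting on the 4 NPPA counts of MG 5. NPR2 held 77.7 to 86.3% of the receptor FPKM in MG and 72.8 to 87.1% in HG, and these ranges overlapped.

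The ratio of NPPB to NPR2 was 7.70 ± 1.76 in MG and 1.77 ± 0.223 in HG (SD, n = 5). The FPKM of FURIN was 1.44 to 1.90 times that of NPPB in MG and 5.63 to 8.93 times in HG. The groups did not overlap in either ratio, but both ratios hold NPPB, whose values the rule used, and they are given as a description.

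**Figure D3:**
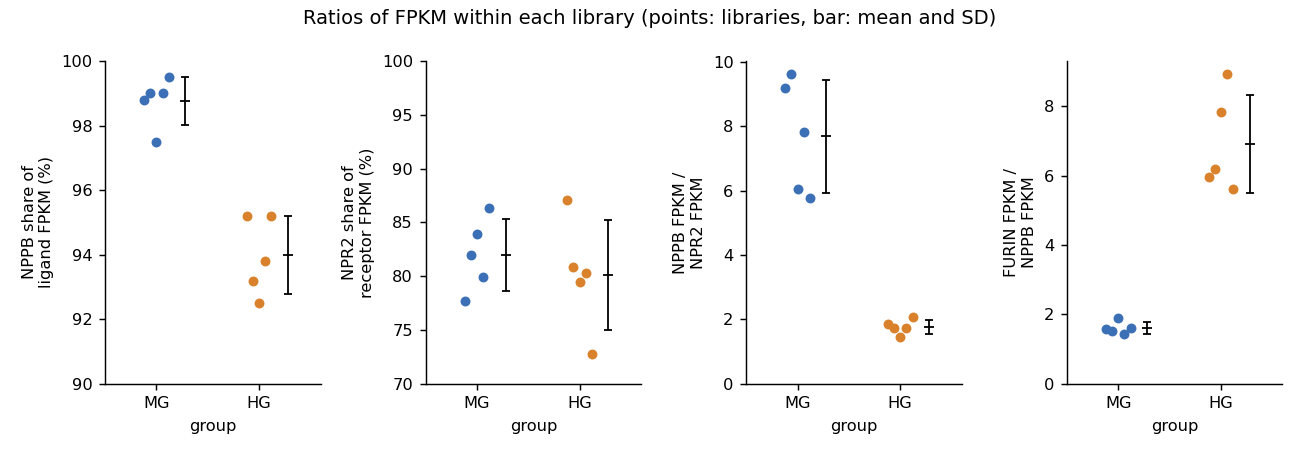
FPKM ratios within each library for 5 MG (blue) and 5 HG (orange) libraries, with mean and SD beside the points. The axes of the 2 percentage panels start at 90% and 70%. The NPPB share of the ligand FPKM and the 2 ratios that hold NPPB separate the groups, and the NPR2 share of the receptor FPKM, 77.7 to 86.3% in MG, does not.

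Genes around the peptide system were taken from 7 lists of 112 genes in the table, of which 78 passed the filter, 16 had no count and the others were too low to test. In the same edgeR fit, 9 of the 78 were called higher (11.5%) and 10 lower (12.8%), against 7.62% and 7.8% of all rows. For the other counts given below, the shares of all rows called higher and lower were 14.1% and 14.4% at an unadjusted p under 0.05, 9.64% and 10.2% with DESeq2, and 16.5% and 16.5% with 1 surrogate variable in the edgeR fit. The lists were drawn up with earlier results of these data known, and nothing particular to them is read from these shares.

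Among the proprotein convertases, the family of FURIN, 0 of 5 tested genes rose and 1 fell by edgeR, against 0 higher and 3 lower at an unadjusted p under 0.05 and by DESeq2. PCSK7, a membrane convertase with a cutting site like that of FURIN, fell by 0.28 on the log2 scale (SE 0.0639, edgeR adjusted p = 0.014), from 59.0 ± 3.72 CPM in MG to 48.7 ± 3.61 CPM in HG (SD, n = 5), with no overlap. The differences of the other 4, PCSK4, PCSK5, PCSK6 and MBTPS1, lay between −0.54 and 0.08 and did not pass. Without HG 2 or without MG 2 the count of called genes in this list was 2.

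Of the 5 tested genes for enzymes that degrade the peptides, 2 rose and 1 fell. MME, which encodes neprilysin, a main peptidase of the atrial and C-type peptides, had 42.6, 44.6, 52.0, 53.5 and 56.9 CPM in MG and 67.5, 88.0, 83.6, 84.7 and 85.1 CPM in HG. All HG libraries lay above all MG libraries, and MME rose by 0.71 (log2, SE 0.0963, edgeR adjusted p = 0.000857). FAP, a cell surface serine peptidase, rose by 0.46 (log2, SE 0.0656, edgeR adjusted p = 0.00104), from 80.4 to 111 CPM. ECE1, which cuts endothelin precursors and other peptides, fell by 0.19 (log2, SE 0.0474, edgeR adjusted p = 0.0226), from 174 to 153 CPM, and its call was lost in all 3 limma fits of FPKM and without HG 2, without MG 1 or without MG 5 (adjusted p from 0.00182 to 0.0709 over its alternatives). The differences of IDE and DPP4 were −0.19 and 0.09 and did not pass, and without MG 2 the number that fell was 2.

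Cyclic GMP is also made by other cyclases, such as the soluble cyclase that nitric oxide activates. The list of cyclases outside the peptide receptors, their activators and the nitric oxide synthases had 11 genes in the table, of which 3 passed the filter: GUCY1A2 and GUCY1B1, subunits of the soluble cyclase, and GUCA1B, an activator of the photoreceptor cyclases. By edgeR 0 of the 3 were called, 0 passed an unadjusted p under 0.05, and DESeq2 called 0. Their log2 differences lay between −0.29 and 0.10.

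The list for the breakdown of cGMP held genes for phosphodiesterases and for noncatalytic partners, such as PDE6D and PDE6G. Of its genes, 11 were tested, of which 0 rose and 1 fell. PDE1C, a calcium-activated phosphodiesterase, fell by 0.52 (log2, SE 0.107, edgeR adjusted p = 0.0083), from 140 ± 15.7 CPM in MG to 98.0 ± 13.8 CPM in HG (SD, n = 5), with no overlap. The differences of the other 10 lay between −0.76 and 0.70, 2 of which were higher at an unadjusted p under 0.05 and 0 by DESeq2. Without HG 1 or without MG 2, 1 of them was called higher, and with 1 surrogate variable 3 were, where 16.5% of all rows were called higher.

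Downstream of cGMP, 10 effector and export genes were tested, of which 2 rose and 1 fell. RGS4 and RGS2 encode regulators of G protein signalling, and VASP an actin-binding protein that cGMP-dependent kinase phosphorylates. RGS4 rose by 0.64 (log2, SE 0.069, edgeR adjusted p = 0.000233), from 32.8 to 51.2 CPM, and VASP fell by 0.45 (log2, SE 0.0597, edgeR adjusted p = 0.000729), from 158 to 115 CPM, both with no overlap of the groups. RGS2 was low, with 0.484 to 1.03 CPM in MG and 0.882 to 2.25 CPM in HG. It rose by 1.00 (log2, SE 0.298, edgeR adjusted p = 0.0438), the groups overlapped, and its call was lost when any 1 of HG 2, HG 3, HG 4, MG 1, MG 3, MG 4 or MG 5 was left out, without the filter on low counts, and in both limma fits of FPKM that tested it, with adjusted p from 0.0154 to 0.104 over its alternatives. The kinase gene PRKG1 had a difference of 0.32 and did not pass (edgeR adjusted p = 0.129). PRKG1 was named after its value was seen.

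Transcription factors and cofactors known to act on natriuretic peptide genes, most of them from work on heart muscle, made up the largest list. Of 28 tested genes, 4 rose and 4 fell by edgeR. At an unadjusted p under 0.05 (14.1% and 14.4% of all rows), 4 were higher and 8 lower. DESeq2 (9.64% and 10.2%) called 4 higher and 6 lower, and edgeR with 1 surrogate variable (16.5% each way) called 6 higher and 9 lower. SRF, the serum response factor, had 99.6, 87.5, 81.8, 82.1 and 93.1 CPM in MG and 67.1, 62.5, 61.8, 61.1 and 67.5 CPM in HG, with no overlap, and fell by 0.47 (log2, SE 0.0635, edgeR adjusted p = 0.000826). MRTFA, a cofactor of SRF, fell by 0.35 (log2, SE 0.0872, edgeR adjusted p = 0.0194), with HG 1 inside the MG range and the call lost without HG 3, HG 4 or HG 5 (adjusted p from 0.00109 to 0.054 over its alternatives). TEAD2, a DNA-binding partner of YAP1, fell by 0.71 (log2, SE 0.143, edgeR adjusted p = 0.00729), and EGR1, an immediate early factor, by 0.92 (log2, SE 0.163, edgeR adjusted p = 0.00357). EGR1 was low, at 2.43 ± 0.312 CPM in MG and 1.28 ± 0.188 CPM in HG (SD, n = 5).

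The 4 factors that rose were MEF2C, ATF3, HDAC5 and JUN. MEF2C, a muscle and neural factor, rose by 0.89 (log2, SE 0.162, edgeR adjusted p = 0.00415), from 1.72 to 3.19 CPM, and ATF3, a stress-induced factor, by 0.68 (log2, SE 0.0854, edgeR adjusted p = 0.000558), from 10.3 to 16.4 CPM. HDAC5, a repressor of MEF2 factors, rose by 0.38 (log2, SE 0.110, edgeR adjusted p = 0.0405) with overlap of the groups, and JUN, a subunit of the AP-1 factor, by 0.16 (log2, SE 0.0417, edgeR adjusted p = 0.0284). The call of HDAC5 was lost when any library other than HG 4 and MG 2 was left out (adjusted p from 0.00129 to 0.0985 over its alternatives), and that of JUN without HG 3, HG 4, HG 5 or MG 3 (0.00267 to 0.0691). The number that rose was 2 without HG 3, without HG 5 or without MG 3. Some cardiac factors of the list, GATA4, NKX2-5, TBX5 and TBX20, had no count in any library. Others were expressed and did not pass: GATA6 (39 CPM in MG and 34 CPM in HG), MEF2A (85 and 92 CPM) and MEF2D (24 and 27 CPM). These were named after their values were seen.

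Upstream hormones and receptors that raise or lower natriuretic peptide expression in other tissues gave 1 gene that rose and 2 that fell among 16 tested. EDN1, the gene for endothelin-1, a vasoconstrictor peptide, had 14.7, 10.7, 8.37, 10.3 and 9.90 CPM in MG and 3.22, 4.27, 3.30, 4.89 and 4.14 CPM in HG. It did not overlap between the groups and fell by 1.45 (log2, SE 0.169, edgeR adjusted p = 0.000366). EDN2, its close relative, had 48 to 72 counts in MG and 10 to 17 counts in HG, and fell by 2.02 (log2, SE 0.259, edgeR adjusted p = 0.000617). EDNRA, an endothelin receptor gene, had 69 counts in all and was not tested. EDNRB, the other receptor gene, stood at 0.363 to 1.07 CPM and did not pass. Both were named after their values were seen.

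AGT, the gene for angiotensinogen, the precursor of angiotensin, rose by 1.16 (log2, SE 0.185, edgeR adjusted p = 0.00199), from 2.34 ± 0.462 CPM in MG to 5.22 ± 0.999 CPM in HG (SD, n = 5), again with no overlap. The angiotensin receptor genes AGTR1 and AGTR2 had no count in any library. The differences of the 13 genes that did not pass lay between −0.33 and 0.43.

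**Figure D4:**
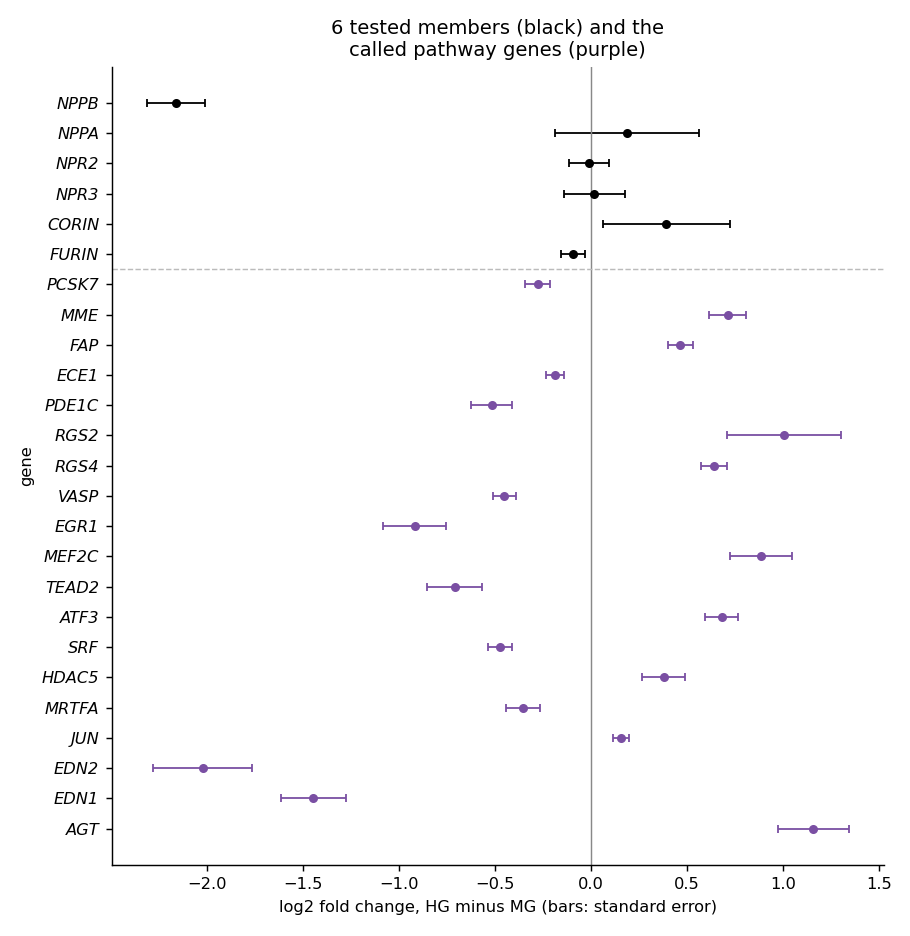
Log2 fold change, HG minus MG, with standard error (n = 5 in each group) for the 6 tested members (black, above the dashed line) and the 19 called genes of the pathway lists (purple). NPPB, at −2.16, lies farthest to the left, followed by EDN2 at −2.02 and EDN1 at −1.45, and NPR2 and NPR3 lie at 0 within their error.

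Genes close to NPPB on the chromosome (GRCh38, GENCODE 29) were examined within 100 kb. CLCN6, a chloride transporter gene 9.38 kb away, had 24.6 ± 2.43 CPM in MG and 25.8 ± 1.09 CPM in HG (SD, n = 5), a log2 difference of 0.07 (SE 0.0725, edgeR adjusted p = 0.584). KIAA2013 (log2 difference −0.13, SE 0.0678, edgeR adjusted p = 0.248) and PLOD1 (−0.01, SE 0.0709, edgeR adjusted p = 0.948), a collagen lysyl hydroxylase gene, were not called. C1orf167 had no count.

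The genes whose pattern was most like NPPB were taken by Pearson's r of log2 CPM over the 10 libraries, among 12364 genes with a mean of at least 1 CPM. As the libraries fall into 2 groups, r is high for any gene that separates them: 393 genes had r above 0.9 and 318 had r below −0.9. The highest were MDGA1 (r = 0.992), MYRF (0.990), CADM4 (0.990), CNN2 (0.988) and GBP2 (0.988), and every HG library was below every MG library for each of them. MDGA1 and CADM4 encode cell surface adhesion proteins of the immunoglobulin family. Their differences were smaller than that of NPPB, from −0.33 for MYRF to −1.19 for GBP2 on the log2 scale.

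The most opposite genes were DUSP4 (r = −0.990), TFPI (−0.988), STEAP2 (−0.987), PHLDA1 (−0.986) and FADS1 (−0.985). DUSP4 is a phosphatase of MAP kinases and FADS1 a fatty acid desaturase. Their log2 differences were 0.25 to 0.74, with every HG library above every MG library.

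After each group's mean was removed, so that only differences between libraries of the same group remained, other genes came first: ZNF853 (r = 0.941), IL27RA (0.940), TNS2 (0.920), KLHDC9 (0.916) and FAM43B (0.915), and 0 of the 5 were among the first 5 of the other ranking. Of the members, NPR2 (r = 0.520) and FURIN (0.458) had the highest within-group r with NPPB, and NPR3 (0.101) and NPPA (0.030) the lowest. These are descriptions over 10 libraries, with no p, and all genes compared share the depth and composition of each library.

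**Figure D5:**
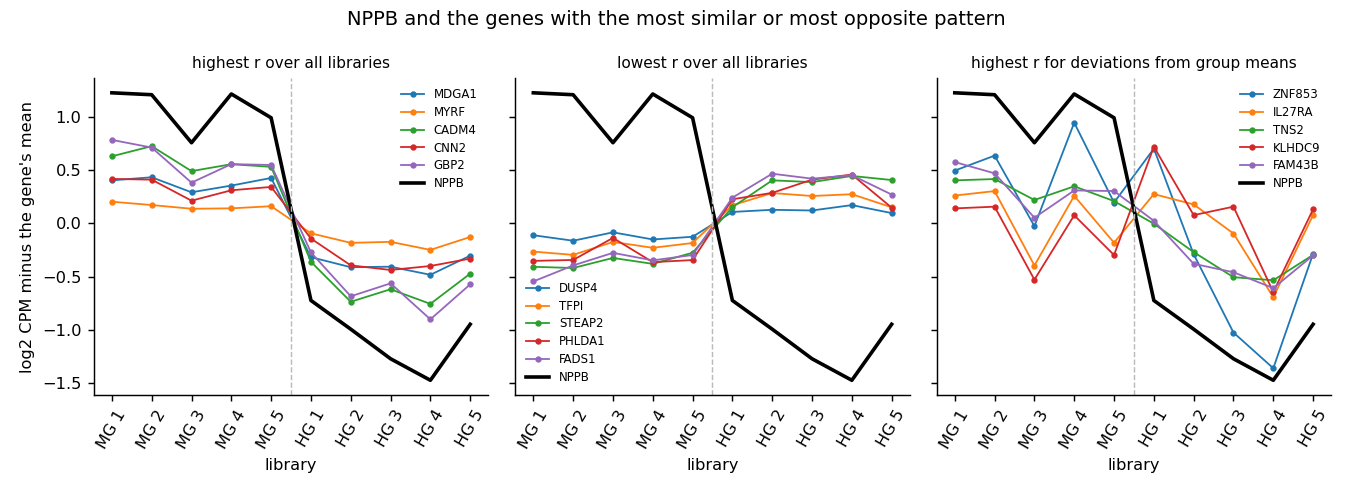
Log2 CPM minus each gene's mean over 10 libraries, for NPPB (black) and the 5 genes with the highest r over all libraries (left), the lowest r (middle) and the highest r after removal of group means (right). Lines join the libraries of 1 gene and have no order in time. NPPB spans a wider range than the genes of the left panel, whose differences between groups run from −0.33 to −1.19.

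The labels and the cell type were checked on genes outside the set. TXNIP, a gene that glucose is known to raise, had 0.809 to 1.23 CPM in MG and 5.38 to 12.9 CPM in HG, in the direction the labels give. Of 17 genes listed as RPE markers, 13 were tested. At an unadjusted p under 0.05, 0 were higher and 7 lower, against 14.1% higher and 14.4% lower of all rows. DESeq2 called 0 higher and 5 lower of the 14 it tested, against 9.64% and 10.2% of all its rows. By edgeR with adjustment 0 rose and 3 fell, against 7.62% and 7.8% of all rows. These 3 were PMEL, KRT8 and KRT18, the keratin genes from 1864 to 1211 CPM and from 1060 to 659 CPM (edgeR adjusted p = 0.00159 and 0.00142). RPE65 had 6 counts in all and TTR none. The summed level of the RPE list was 3900 to 4704 CPM in MG and 2920 to 3901 CPM in HG, so that HG 1 reached the lowest MG library. KRT8 and KRT18 were lower in HG, whereas SLC16A3, the other abundant gene of the list, had 1082 CPM in MG and 1187 CPM in HG and did not pass. KRT8, KRT18 and SLC16A3 made up most of the summed level and are not particular to the RPE. The part of these genes in the NPPB result was not tested. BEST1 stood at 264 CPM in MG 1 and 551 CPM in MG 4 and at 0.577 to 7.79 CPM in the other 8 libraries. NPPB was at 20.6 and 20.5 CPM in MG 1 and MG 4. In the other control libraries BEST1 was at 0.942, 0.577 and 5.26 CPM and NPPB at 20.4, 14.9 and 17.5 CPM (MG 2, MG 3 and MG 5), and the part of BEST1 in the NPPB result was not tested.

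The defining genes of heart muscle cells, the classic source of NPPB, were at or near 0. Of 12 such markers 8 had no count, MYH6, MYH7, TNNT2 and TNNI3 among them, and the summed level was 1.57 to 3.27 CPM in MG and 3.01 to 4.10 CPM in HG, higher in HG through ACTN2. Of 7 endothelial markers 2 were tested, PECAM1 had 6 counts in all and CDH5 none. KDR fell by 0.63 (log2, SE 0.188, edgeR adjusted p = 0.0452), with overlap of the groups (2.67 to 4.57 CPM in MG and 1.82 to 2.77 CPM in HG). The summed level of the endothelial list was 3.22 to 5.42 CPM in MG and 2.44 to 3.22 CPM in HG. It lay mostly lower in HG, but the groups met at 3.22 CPM, whereas those of NPPB did not overlap. Its part in the NPPB result was not tested.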

How the data were processed

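RNA of 10 ARPE-19 libraries was sequenced. The authors deposited 1 table of read counts and 1 table of FPKM values per gene. According to the submitters' processing notes, reads were trimmed with fastp 0.20.1 and aligned with HISAT2 2.2.1 to GRCh38. The counting program, its annotation and its use of strand are not given in the sources used here. Columns were assigned to groups by their names, and HG columns by group alone.

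Counts were tested with edgeR 4.0.16 (filterByExpr, TMM, glmQLFit and glmQLFTest, HG against MG, no covariate, R 4.3.3) over all 14936 rows that passed, with Benjamini-Hochberg adjustment and a threshold of 0.05. CPM were scaled by the TMM library sizes, and log2 CPM used a prior count of 2. DESeq2 1.42.0, limma 3.58.1 on log2(FPKM + 1) and sva 3.50.0 served as alternatives, and the scripts were tested on simulated data. Intervals used the SE of the fit and a t quantile with 8 degrees of freedom. Positions came from GENCODE 29. All 20 pairs of libraries within groups differed by more than sampling noise.

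The members and the gene lists were chosen with earlier results of these data known. Named were all 8 members, up to 8 genes per list with an adjusted p under 0.05, TXNIP, genes within 100 kb of NPPB, and the 5 genes most like it in each ranking. One result that this rule names is not reported here.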

Additional observations from a re-analysis of the deposited data

Results flagged for a closer look

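The genes named by the rule above that passed the filter on low counts gave 90 groups of 5 libraries. These were examined for 1 library far from the other 4 (a gap of over 0.71 of the group's range), and 9 had one, where chance gives about 4.5. NPPC, whose 2 counts lay in MG 5, and NPR1 were not examined, and no library of a tested member was among the 9. Of these, 4 lay in HG 1: MME at 67.5 CPM against 83.7 to 88.0 CPM in the others, MRTFA at 50.9 CPM against 38.2 to 41.4 CPM, KIAA2013 at 44.7 CPM against 35.7 to 38.2 CPM and STEAP2 at 16.8 CPM against 19.8 to 20.6 CPM. In HG 5, ECE1 stood at 140 CPM against 154 to 158 CPM and CLCN6 at 24.0 CPM against 26.0 to 26.7 CPM. In MG, HDAC5 was high in MG 2 at 44.3 CPM against 32.1 to 35.6 CPM, JUN low in MG 1 at 191 CPM against 210 to 214 CPM, and PHLDA1 high in MG 3 at 102 CPM against 87.3 to 88.5 CPM. Other genes of the report, such as uncalled pathway genes and cell type markers, were not examined in this way. Among them, SLC16A3 stood at 1420 CPM in HG 1 against 1120 to 1150 CPM in the other HG libraries. In MG 2 it stood at 1240 CPM against 1020 to 1060 CPM in the other MG libraries, and PMEL at 4.35 CPM against 3.35 to 3.46 CPM.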

How the results depend on the processing

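NPPB was chosen on this contrast, so its values under the alternatives are a description. Its log2 difference lay between −2.23 and −1.98 in the analyses with all libraries or without MG 2 and HG 1 together, and between −2.26 and −2.07 when each library was left out in turn. The count of all called rows, 2303, was 4923 with 1 surrogate variable and 4035 without MG 2 and HG 1 together, and 1648 to 2993 when each library was left out. The count of called pathway genes, 19, was 34 and 29 in those settings and 15 to 24 when each library was left out. With 1 surrogate variable 2 convertases were called lower, and 3 cGMP hydrolysis genes, 4 effector genes and 2 upstream genes were called higher, beside the transcription factors given above. Of 376 values of the 19 called pathway genes under alternatives, 345 kept direction and call, 31 kept the direction and lost the call, and 0 reversed. Low genes had smaller differences with limma on log2(FPKM + 1), where the added 1 understates their change: −0.74 for EDN2, −0.31 for EGR1, 0.23 for MEF2C, 0.41 for RGS2, 0.06 for NPPA and 0.03 for CORIN. The cause of the other moves was not tested. No paired analysis was possible because the labels letter the HG samples and number the MG samples, so that the numbers of the HG columns could not be tied to samples or paired with MG. The counts of 4 to 23 for NPPA and CORIN limit what could be seen for these genes.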
